A study of Mus musculus with 2 samples.

Results

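The transforming growth factor β (TGF-β) family was examined in mouse heart through 10 genes chosen by symbol: the ligands Tgfb1, Tgfb2 and Tgfb3, the receptors Tgfbr1, Tgfbr2 and Tgfbr3, and the latent TGF-β binding proteins Ltbp1, Ltbp2, Ltbp3 and Ltbp4. All 10 were found among the 22882 gene symbols of the RNA-seq data, each on 1 row. The control group was Med1fl/fl, mice with loxP sites in both copies of Med1, which encodes a subunit of the Mediator complex of RNA polymerase II transcription. The second group was csMed1-/-, which carried the same floxed alleles and a Cre transgene under the α-myosin heavy chain promoter, so that Med1 was deleted in cardiomyocytes from late gestation on while the other cells of the heart kept it. Both groups were untreated C57BL6/J mice of mixed sex, 23 days old, and the question was which genes differ in expression once cardiomyocytes lack Med1.

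Heart RNA of 5 mice was pooled within each genotype and 1 poly(A) library was made from each pool, so there are no replicates, no spread between animals and no test. The values are FPKM, that is, fragment numbers scaled to transcript length and to the size of the library. The scaling is meant to let genes of a library be set beside each other, but single values can be off. In control, the cardiomyocyte markers Myl2 and Ttn were listed at 20467 and 8.22 FPKM, and Actc1 at 0. Shares, orders and ratios between genes below therefore describe the listed values only. A gene was compared when it was above 0 in both libraries and reached 1 FPKM in at least 1 of them, which left 10489 genes, and a difference was counted when the plain ratio of FPKM passed 2-fold.

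TGF-β is secreted by many cell types as a latent complex, in which the mature ligand stays bound to its own propeptide. Latent binding proteins tether this complex to fibrillin and fibronectin in the extracellular matrix, and integrins, proteases and thrombospondin release the ligand. The free ligand assembles the type II receptor (Tgfbr2) with a type I receptor (Tgfbr1, also called ALK5), helped by the co-receptor betaglycan (Tgfbr3), and the type I receptor phosphorylates Smad2 and Smad3. In the heart the pathway is best known for driving fibroblasts to make matrix during fibrosis, and for its part in valve formation in the embryo.

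The targeted gene, Med1, had 3.38 FPKM in control against 0.412 in csMed1-/- heart, 8.22-fold lower, which goes with the labels. Summed over all genes, FPKM came to 780366 for control and 716365 for csMed1-/-. Read counts are not in the files used here, so the depth behind single values is unknown. Among 2461 rows of up to 0.15 FPKM in both libraries, the commonest ratio of csMed1-/- to control was 0.722, in a bin of 79 rows. Its inverse gave csMed1-/- a depth 1.39 times that of control. This holds provided that those rows had equal fragment numbers in both libraries, and that scaling used the number of mapped fragments and nothing else. Of 12 cardiomyocyte markers 9 could be compared. Actc1 and Mb, and a row that joins Myh6 and Myh7, were listed at 0 in control although they had 9189, 1040 and 647 FPKM in csMed1-/- heart, so a 0 in the control file was not read as absence. None of the 10 TGF-β family genes was at 0 in either library.

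Of the 10 family genes, 7 had more transcript in csMed1-/- heart, 2 (Tgfbr3 and Ltbp1) had less, and Tgfbr2 was level. By sign alone 7 had more and 3 less, beside 7508 and 8422 of the 15930 genes above 0 in both libraries. Among the 10489 genes compared, which leave out Tgfbr1, 4910 had more and 5579 less, and of the family 6 had more and 3 less. All except Tgfbr1 passed the filter, 9 genes, and among these Ltbp2, Tgfb2, Ltbp3 and Tgfb3 were more than 2-fold higher and Tgfbr3 was more than 2-fold lower. Over all 10489 genes compared, 13.6% were more than 2-fold higher and 18.0% more than 2-fold lower, 31.5% in all, beside 5 of the 9 family genes. Past 4-fold were Tgfb2 and Ltbp2, both higher, and 0 family genes lower, where 4.32% of all genes were higher, 5.14% lower and 9.46% either. With every gene above 0 in both libraries kept, Tgfbr1 joined the higher group, which made 5 of 10 genes, against 15.7% of 15930 genes, and 1 of 10 was lower, against 20.0% (35.7% of all genes in either direction). Over the 9 genes the median log2 ratio was 0.95 (positive where csMed1-/- was higher), beside -0.07 over all genes compared. Tgfb2 and Ltbp2 were below 1 FPKM in control and entered the comparison through the csMed1-/- library alone. Of the 545 genes that entered in this way, 386 were more than 2-fold higher, so passing 2-fold is no support for these 2 genes beyond their own values.

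**Figure D1:**
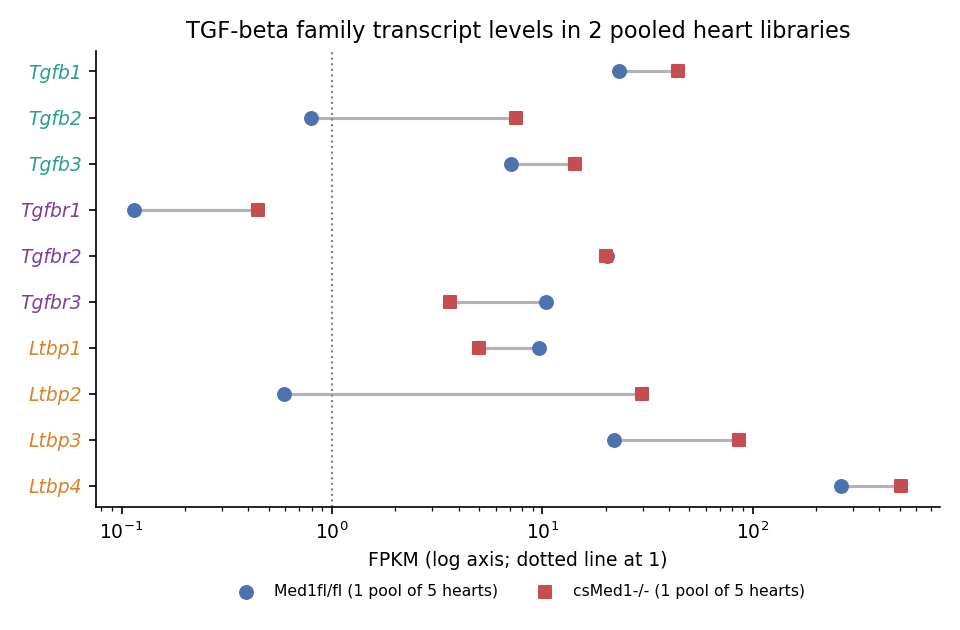
FPKM of the 10 TGF-β family genes on a log axis, with circles for the Med1fl/fl library and squares for the csMed1-/- library (1 pool of 5 hearts each) and a dotted line at 1 FPKM. Gene names are coloured by role (ligands green, receptors purple, latent binding proteins orange). Ltbp2 and Tgfb2 cross from below 1 FPKM to 29.6 and 7.51 FPKM, the 2 points of Tgfbr2 lie on each other, and Tgfbr1 stays below 1 FPKM in both libraries.

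All 3 ligands had more transcript in csMed1-/- heart, and Tgfb2, the ligand with the lowest level in both libraries, differed most. Tgfb2 lies on chromosome 1, minus strand, bases 186622792 to 186705989 (GENCODE M21 annotation of GRCm38, the assembly also called mm10). It had 0.799 FPKM in control against 7.51 in csMed1-/- heart, 9.40-fold higher (log2 ratio 3.23). Of the 10489 genes 139 had a larger ratio, but Tgfb2 entered the comparison through the csMed1-/- library alone, so this rank is no support. The 545 genes that entered in this way had a median log2 ratio of 1.63. Because the control value was low, adding 1 FPKM to both values brought the log2 ratio to 2.24.

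Tgfb1, the ligand made most widely by immune, platelet and connective tissue cells, lies on chromosome 7, plus strand, bases 25687002 to 25705077. Its level was 23.2 FPKM in control against 43.9 in csMed1-/- heart, 1.89-fold higher (log2 ratio 0.92) and just inside the 2-fold limit. Tgfb3, a ligand with known roles in palate and valve development, lies on chromosome 12, minus strand, bases 86056745 to 86079041. It had 7.10 and 14.3 FPKM, 2.02-fold higher (log2 ratio 1.01) and just past the limit. These 2 ligands thus differed by nearly the same factor, and with 1 FPKM added to both values Tgfb3 was also inside 2-fold, at 0.92.

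Together the 3 ligands summed to 31.1 FPKM in control against 65.8 in csMed1-/- heart, 2.12-fold higher. Tgfb1 was the largest share of this sum in both libraries, 74.6% in control and 66.8% in csMed1-/- heart. The share of Tgfb2 was 2.57% in control and 11.4% in csMed1-/- heart, while that of Tgfb3 was 22.8% and 21.8%. Control heart held 29.0 times as much Tgfb1 as Tgfb2 transcript, and csMed1-/- heart 5.85 times as much. The order Tgfb1, Tgfb3, Tgfb2 was the same in both libraries.

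The upstream sequences of Tgfb2 and Ltbp2, the 2 family genes with the largest ratios among those compared, are given here beside that of Tgfb1, so that the region before each start site can be read against the values. Each is the 250 bases before a RefSeq transcript start (GRCm38.p6), written 5′ to 3′ on the strand of the gene. Capitals mark matches on either strand to the Smad box CAGAC, which reads as its reverse complement when it lies on the opposite strand, to the E-box CACGTG and to the TATA box TATAAA.
Tgfb2, minus strand, chr1:186705990-186706239: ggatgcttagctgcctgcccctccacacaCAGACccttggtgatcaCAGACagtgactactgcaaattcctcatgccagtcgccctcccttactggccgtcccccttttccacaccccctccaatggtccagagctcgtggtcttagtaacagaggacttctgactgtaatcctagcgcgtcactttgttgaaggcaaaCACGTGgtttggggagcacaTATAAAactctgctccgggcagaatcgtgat
Ltbp2, minus strand, chr12:84876492-84876741: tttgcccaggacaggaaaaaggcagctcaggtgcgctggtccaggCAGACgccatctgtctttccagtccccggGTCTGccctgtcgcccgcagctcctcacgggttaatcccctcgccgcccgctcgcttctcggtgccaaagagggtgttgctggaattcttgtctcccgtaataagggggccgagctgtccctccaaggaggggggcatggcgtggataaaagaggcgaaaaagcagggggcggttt
Tgfb1, plus strand, chr7:25686752-25687001: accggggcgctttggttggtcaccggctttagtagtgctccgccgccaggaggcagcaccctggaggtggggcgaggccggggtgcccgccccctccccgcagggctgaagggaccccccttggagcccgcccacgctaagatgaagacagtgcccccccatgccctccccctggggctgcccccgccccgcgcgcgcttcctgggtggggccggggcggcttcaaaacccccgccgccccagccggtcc

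Tgfb2 and Ltbp2 each had 2 matches to the Smad box in this window, and Tgfb1 had none. Of the 8 genes with a sequence 6 had at least 1 match, among them Ltbp1, which was lower and had 2 in 1 of its windows, and Tgfbr2. Some genes had more than 1 window, and counted by sequence 7 of 12 held a match. Among 9554 upstream sequences of genes compared, 40.2% held at least 1 such match and 10.8% held 2 or more. Only Tgfb2 among the family genes had the E-box, at bases -51 to -46 from the start, and the TATA box, at bases -31 to -26. These were found in 8.21% and 6.53% of all sequences. The Tgfb1 window held 5 matches to the GC box GGGCGG, which Sp family factors can bind and which 58.3% of all sequences held, the Ltbp2 window held 2, and the GC content was 75.2% for Tgfb1 against 53.6% for Tgfb2 and a median of 60.0% over all. Of the 10 family genes 8 had an upstream sequence, 12 sequences in all, and Tgfb3 and Tgfbr3 had none. The CRE half-site TGACG, found in 26.2% of all sequences, had 1 match in Tgfb2, at bases -72 to -68. It had 2 overlapping matches in 1 window of Ltbp1 and none in the other family sequences. No family sequence matched the AP-1 site TGANTCA, the TEAD site GGAATG or the nuclear receptor half-site AGGTCA, which were found in 4.55%, 11.4% and 10.9% of all sequences. A match describes letters in the window and does not show binding.

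**Figure D2:**
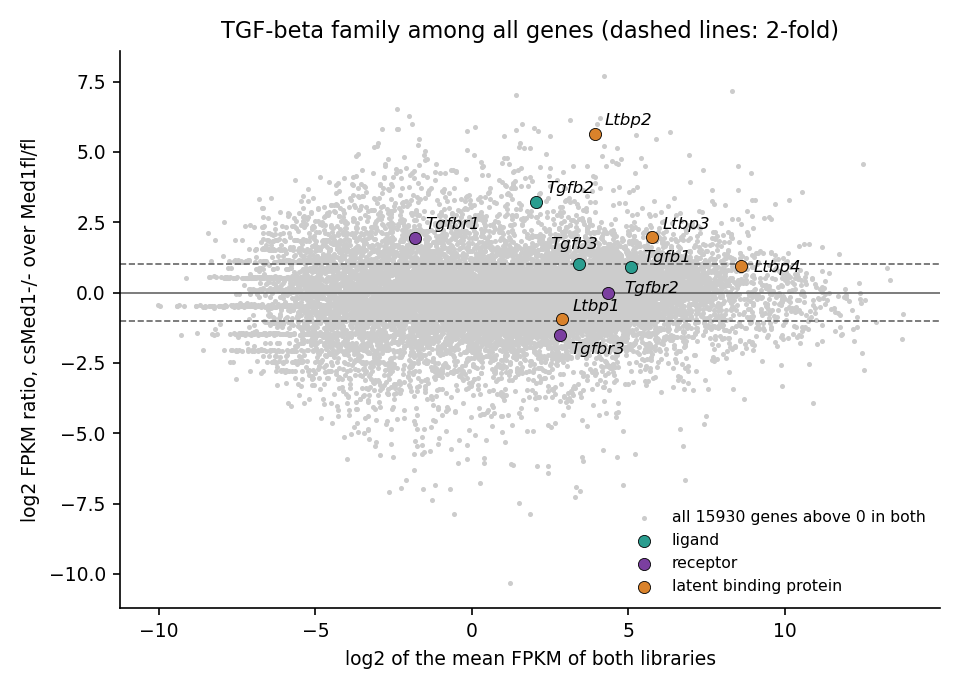
Log2 FPKM ratio of csMed1-/- to Med1fl/fl heart against the log2 of the mean FPKM of both libraries, for all 15930 genes above 0 in both (grey) and the 10 TGF-β family genes (coloured by role), with dashed lines at 2-fold. Ltbp2 (5.65) and Tgfb2 (3.23) lie above most genes of similar level, Tgfbr2 lies on the zero line, and Tgfbr3 (-1.51) lies below the lower dashed line.

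The 3 receptors did not share a direction. Tgfbr2, the type II receptor that binds the ligand, was at the same level in both libraries, with 20.2 FPKM in control against 20.1 in csMed1-/- heart (ratio 0.995). It lies on chromosome 9, minus strand, bases 116084293 to 116175360. Its log2 ratio of -0.01 became 0.06 once all ratios were centred on their median, so it has no direction.

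Tgfbr3 encodes betaglycan, which presents ligand, TGF-β2 above all, to the type II receptor. It lies on chromosome 5, minus strand, bases 107106570 to 107289629 and had 10.4 FPKM in control against 3.64 in csMed1-/- heart, 2.85-fold lower (log2 ratio -1.51). It was the 1 family gene more than 2-fold lower. The betaglycan transcript was therefore lower in the library in which its ligand Tgfb2 was higher.

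Tgfbr1, the type I receptor kinase, was the lowest of the 10 genes in both libraries. It lies on chromosome 4, plus strand, bases 47353222 to 47414931 and had 0.115 FPKM in control against 0.446 in csMed1-/- heart, a ratio of 3.87 between values below 1 FPKM. With 1 FPKM added to both values its log2 ratio of 1.95 became 0.37. Tgfbr2 transcript exceeded Tgfbr1 transcript 176-fold in control and 45.2-fold in csMed1-/- heart. Both figures divide by a Tgfbr1 value below 1 FPKM, of unknown precision, so they are not read as a shift between these receptors.

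The receptors summed to 30.7 FPKM in control against 24.2 in csMed1-/- heart (ratio 0.788). Tgfbr2 made up 65.8% of this sum in control and 83.1% in csMed1-/- heart, and Tgfbr3 33.8% and 15.0%. For each unit of Tgfbr2 the libraries held 1.54 units of summed ligand transcript in control and 3.27 in csMed1-/- heart.

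The latent binding proteins held both the most abundant gene of the family and the one with the largest ratio. Ltbp2 lies on chromosome 12, minus strand, bases 84783212 to 84876532. It encodes a fibrillin-binding matrix protein that, unlike the other members, is not known to bind latent TGF-β. Its level was 0.591 FPKM in control against 29.6 in csMed1-/- heart, 50.1-fold higher (log2 ratio 5.65). Of the 10489 genes 13 had a larger ratio, but Ltbp2 also entered through the csMed1-/- library alone, so this rank is no support. With 1 FPKM added to both values the log2 ratio was 4.27.

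A gene on the opposite strand, D030025P21Rik, overlaps the 5′ end of Ltbp2 and also spans the upstream sequence printed above. It was named after its values were seen. Its exons cover 764 of the 8184 exonic bases of Ltbp2 (9.34%), and it had 0.0327 FPKM in control against 1.75 in csMed1-/- heart, 53.4-fold higher. The libraries were directional, but whether the counting used strand is not given in the sources used here, so reads of this stretch may have been shared between the 2 genes. The exons of Tgfb3 share no bases with those of the overlapping Ttll5.

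Ltbp3, which binds latent TGF-β and is known for its role in bone and tooth, lies on chromosome 19, plus strand, bases 5740904 to 5758532. It had 21.9 FPKM in control against 85.7 in csMed1-/- heart, 3.92-fold higher (log2 ratio 1.97), and 467 genes had a larger ratio. Its control level was well above 1 FPKM, and every setting tried left its log2 ratio between 1.92 and 2.04.

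Ltbp4, a binding protein needed for elastic fibre assembly, lies on chromosome 7, minus strand, bases 27305136 to 27337692. It was the most abundant family gene in both libraries, with 263 FPKM in control against 509 in csMed1-/- heart, ranking 424th and 262nd of all genes. The ratio of 1.94 (log2 0.95) lay just inside 2-fold and passed it, at 1.02, with ratios centred on their median.

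Ltbp1, the binding protein that most commonly carries latent TGF-β1 into the matrix, was the 1 latent binding protein with less transcript in csMed1-/- heart. It lies on chromosome 17, plus strand, bases 75005568 to 75392512. It had 9.66 FPKM in control against 5.01 in csMed1-/- heart, 1.93-fold lower (log2 ratio -0.95) and inside 2-fold. Control heart thus held 16.3 times as much Ltbp1 as Ltbp2 transcript, whereas csMed1-/- heart held 5.91 times as much Ltbp2 as Ltbp1.

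Summed over the 4 genes, latent binding protein transcript was 295 FPKM in control against 629 in csMed1-/- heart, 2.13-fold higher. Ltbp4 made up 89.1% of the sum in control and 80.9% in csMed1-/- heart, Ltbp3 7.41% and 13.6%, Ltbp2 0.20% and 4.71%, and Ltbp1 3.27% and 0.797%. The members known to bind latent TGF-β (Ltbp1, Ltbp3 and Ltbp4) summed to 294 and 600 FPKM. This was 9.47 times the summed ligand transcript in control and 9.12 times in csMed1-/- heart, so these 2 sums differed between the libraries by nearly the same factor.

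**Figure D3:**
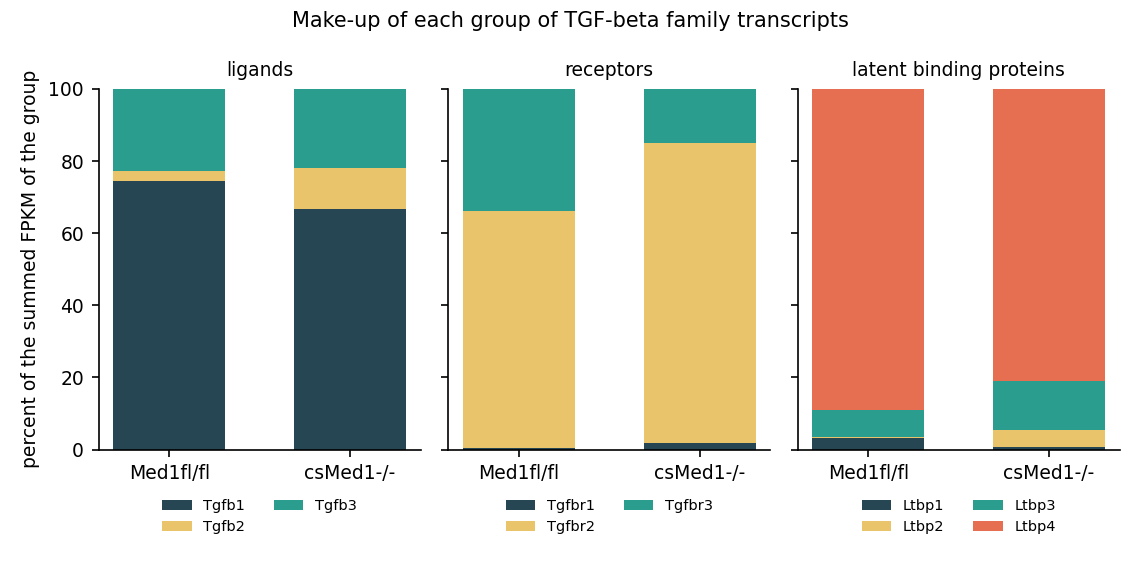
Share of each gene in the summed FPKM of the 3 ligands, the 3 receptors and the 4 latent binding proteins, in percent, for the Med1fl/fl and the csMed1-/- library. Tgfb2 goes from 2.57% to 11.4% of the ligands, Tgfbr3 from 33.8% to 15.0% of the receptors, and Ltbp2 from 0.20% to 4.71% of the latent binding proteins.

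In order of level, control heart had Ltbp4, Tgfb1, Ltbp3, Tgfbr2, Tgfbr3, Ltbp1, Tgfb3, Tgfb2, Ltbp2 and Tgfbr1. In csMed1-/- heart the order was Ltbp4, Ltbp3, Tgfb1, Ltbp2, Tgfbr2, Tgfb3, Tgfb2, Ltbp1, Tgfbr3 and Tgfbr1. Ltbp2 stood in the ninth place in control and in the fourth in csMed1-/- heart, Tgfbr3 in the fifth and in the ninth. Which neighbours in these orders differ beyond the variation between hearts cannot be said from 1 pool a genotype.

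Beyond the family, 91 other genes of TGF-β latency, reception, signalling and response were taken in 5 lists. Of these, 78 could be compared, 29 (37.2%) were more than 2-fold higher and 4 (5.13%) more than 2-fold lower in csMed1-/- heart, beside 13.6% and 18.0% of all genes compared. Their median log2 ratio was 0.55. Of the 29, 6 entered through the csMed1-/- library alone, and with 1 FPKM required in both libraries 23 of 70 were higher and 3 lower. Under this requirement 1037 of all 9160 genes were higher and 1342 lower, the background for the same counts in the lists below. The higher genes stood mainly in the lists of activation and of targets, and the Smads and kinases gave few.

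In the list of latency, activation and matrix storage, 12 of 18 genes were more than 2-fold higher and 0 lower, with a median log2 ratio of 1.39. Of the 12, 4 were below 1 FPKM in control and entered through the csMed1-/- library alone, and with 1 FPKM required in both libraries 8 of 14 were higher. Adamtsl2, a secreted glycoprotein of fibrillin microfibrils, had 15.2 FPKM in control against 233 in csMed1-/- heart (15.4-fold). Fbn1, the fibrillin that latent binding proteins attach to, had 9.63 and 36.1 FPKM (3.74-fold). Tgm2, a transglutaminase that cross-links latent complexes to matrix, had 165 and 567 FPKM (3.44-fold). Itgb5, a chain of an αv integrin that can activate latent TGF-β, had 66.3 and 212 FPKM (3.21-fold). The other 6 genes compared were inside 2-fold, among them Lrrc32, a cell surface anchor of latent TGF-β named after its values were seen, with 12.4 and 9.49 FPKM. The listed genes that the filter left out were below 1 FPKM in both libraries and were also named after their values were seen. Itgb6 (0.890 and 0.0505 FPKM), Itgb8 (0.0113 and 0.00413 FPKM) and Plg (0.0948 and 0.0297 FPKM) were more than 2-fold lower. Mmp9 (0.269 and 0.819 FPKM) was more than 2-fold higher.

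In the list of co-receptors, related receptors and decoys, 2 of 15 genes (13.3%) were more than 2-fold higher, a share near the 13.6% of all genes, and 1 was lower, with a median log2 ratio of 0.19. The 2 higher genes encode small matrix proteoglycans that bind TGF-β and are not receptors. Fmod (fibromodulin) had 2.95 and 27.6 FPKM (9.33-fold) and Bgn (biglycan) had 194 and 1246 FPKM (6.42-fold). The lower gene, Lrg1, which encodes a secreted modulator of endothelial TGF-β signalling, had 110 and 42.4 FPKM (2.60-fold lower). Bambi, a decoy receptor without a kinase, had 5.06 and 8.94 FPKM and was inside 2-fold. Acvrl1 (ALK1), the type I receptor with which Tgfbr2 pairs in endothelium, was named after its values were seen. It had 23.6 and 28.4 FPKM, 205 times the Tgfbr1 transcript in control and 63.8 times in csMed1-/- heart. These multiples, too, rest on Tgfbr1 values below 1 FPKM.

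Among the Smads and their regulators 2 of 20 genes were more than 2-fold higher and 1 was lower, with a median log2 ratio of -0.02, so the shares lay below those of all genes. Smad2 and Smad3, which carry the TGF-β signal, and Smad4, their common partner, were inside 2-fold. Smad2 had 1.11 FPKM in control against 1.03 in csMed1-/- heart, Smad3 had 9.90 and 6.07 FPKM, and Smad4 had 10.1 and 7.32 FPKM. The inhibitory Smads had more transcript in csMed1-/- heart. Smad6, an inhibitor mainly of BMP signalling, had 13.0 and 36.3 FPKM (2.78-fold higher), and Smad7, an inhibitor that TGF-β itself induces, had 5.53 and 10.6 FPKM (1.91-fold higher, inside 2-fold). Pmepa1, another feedback inhibitor, had 9.54 and 16.5 FPKM, and Ppm1a, a Smad phosphatase, had 32.7 and 19.7 FPKM. The other gene past 2-fold higher was Smad9 (0.341 and 1.38 FPKM) and the lower one was Zfyve9 (3.04 and 1.41 FPKM), both named after their values were seen.

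In the branch through the TGF-β activated kinase, 0 of 8 genes were more than 2-fold higher and 2 were lower (18.0% of all genes were), with a median log2 ratio of -0.36. Tab1, the activator subunit of this kinase, had 29.3 and 11.4 FPKM (2.56-fold lower). The second was Map2k6, a kinase upstream of p38, which had 1.31 and 0.0713 FPKM and was named after its values were seen. Mapk14, which encodes p38α, had 50.5 and 25.7 FPKM and was just inside 2-fold. Map2k3 had 98.9 and 145 FPKM and Map2k4 had 8.23 and 7.16 FPKM.

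Among genes known as TGF-β targets, 15 of 21 (71.4%, beside 13.6% of all genes) were more than 2-fold higher and 0 lower, with a median log2 ratio of 1.72. With 1 FPKM required in both libraries 14 of 20 were higher, Cthrc1 being left out. Sphk1, a sphingosine kinase, had 1.93 and 46.7 FPKM (24.2-fold), and Cthrc1, a secreted protein of activated fibroblasts, 0.258 and 5.62 FPKM (21.8-fold). Postn (periostin) had 1.57 and 27.4 FPKM (17.5-fold), and Ctgf, the connective tissue growth factor, had 30.0 and 373 FPKM (12.4-fold). The other 6 compared targets were inside 2-fold. Among them Acta2 had less transcript (573 and 310 FPKM), and Tgfbi (19.2 and 20.9 FPKM) and Bhlhe40 (24.1 and 24.3 FPKM) were nearly level. These were named after their values were seen. Of the 25 genes of this list 5 also stand in another list of the pathway and 4 are fibroblast markers. Without those 4 fibroblast markers, 12 of 17 genes were more than 2-fold higher. Acta2 and Tagln, also smooth muscle markers, were kept in this count. Many of these genes respond to other signals too, so the list does not measure TGF-β activity.

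**Figure D4:**
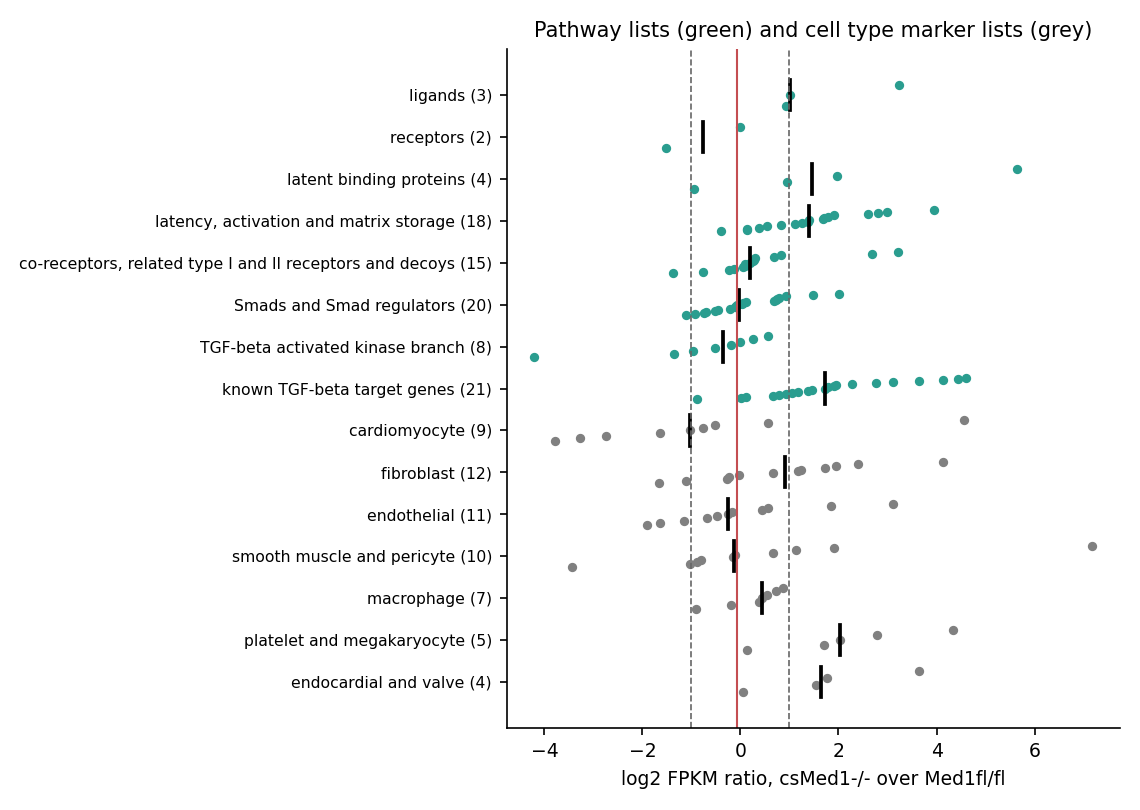
Log2 FPKM ratio of csMed1-/- to Med1fl/fl heart for each compared gene (points) of the pathway lists (green) and of the cell type marker lists with 4 or more compared genes (grey), with the number of genes in brackets, black bars at each list's median, dashed lines at 2-fold and a red line at the median of all genes compared (-0.07). Height within a row only separates points. The medians are 1.39 for latency, activation and matrix storage and 1.72 for known targets, against -0.02 for Smads and -0.36 for the kinase branch.

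The family genes are made by several cell types of the heart, and in bulk RNA fewer cells of a type and less RNA per cell cannot be told apart. Marker lists of these types also differed between the libraries, and their part in the ratios above was not tested. Past 2-fold, 13.6% of all genes compared were higher and 18.0% lower, which is the share to read the following counts against. Of 12 fibroblast markers compared, 6 were higher and 2 lower, and 5 had a ratio below 1. The list summed to 2189 FPKM for control against 2837 for csMed1-/- (1.30-fold), but without Col1a1 (129 and 502 FPKM) it was 2059 and 2335. Postn (log2 ratio 4.13) had the largest ratio and, like Col1a1, Col1a2 and Col3a1, also stands in the target list. Of these shared genes Col3a1 was inside 2-fold and the others were more than 2-fold higher.

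Of 11 endothelial markers 2 were higher and 3 lower, and 7 had a ratio below 1. Their sum was 678 FPKM in control and 1082 in csMed1-/- heart, but without Cldn5 (56.6 and 490 FPKM) it was 622 and 591. Of 10 smooth muscle and pericyte markers 3 were higher and 2 lower, and 6 had a ratio below 1. Their sum was 769 and 1164 FPKM, but without Cnn1 (4.32 and 622 FPKM, log2 ratio 7.17, above that of Ltbp2) it was 765 and 542. None of 7 macrophage markers passed 2-fold (290 and 397 FPKM summed).

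Of 5 platelet and megakaryocyte markers 4 were higher, all of which were below 1 FPKM in control and entered through the csMed1-/- library alone, so that their count is no support. The dominant one, Pf4, had 28.4 and 31.1 FPKM. Of 4 endocardial and valve markers 3 were higher, 1 of which entered in that way, and the sum of 19.4 and 86.0 FPKM was 14.1 and 20.2 without Scx (5.23 and 65.8 FPKM). Of 2 epicardial markers compared 1 was higher and entered in the same way (1.67 and 5.11 FPKM summed), and Upk1b was listed at 0 in control. Of the 9 cardiomyocyte markers compared, 5 were lower and 1, Nppa, was higher. Without the 2 markers listed at 0 in control that list summed to 52988 FPKM in control and 32581 in csMed1-/- heart. With Myl2 (20467 and 6571 FPKM) left out as well it was 32521 and 26010. Pf4, Scx, Nppa, Myl2, Cldn5, Cnn1 and, as a marker, Col1a1 were named, and the sums without a leading gene computed, after the values were seen.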

How the data were processed

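RNA-seq was performed on 1 pooled heart library of 5 Med1fl/fl and 1 of 5 csMed1-/- mice. According to the study's methods, directional poly(A) libraries were read as 50 nt single ends, aligned to mm10 with TopHat v2.0.8b and quantified for UCSC genes with Cufflinks v2.1.1 and cuffdiff. The submitters' processing notes also name STAR 2.4.0h, Bowtie2 and DESeq2 without a role, so which steps made the values is not certain. The values deposited by the authors are FPKM. Which library scaling cuffdiff used is not given in the sources used here.

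Rows sharing 1 of 412 symbols were summed, and groups followed the genotype labels. Genes were compared by plain ratio, with a threshold of 2-fold, if neither library listed them at 0 and at least 1 library reached 1 FPKM. With 1 library per genotype no test was made. Of each pathway list beyond the family, the up to 4 genes with the largest absolute log2 ratio, among genes whose higher value reached 5 FPKM, were named, besides the family, Med1, Smad2, Smad3, Smad4 and Smad7. The family and the lists were chosen with earlier results of these data known. The alternatives were pseudocounts, filters, scalings, thresholds and the highest row of each symbol. A value was taken as the same when it moved by at most 0.1 on the log2 scale (5 percentage points for shares), and a count when it stayed within 1.5 times. Positions came from GENCODE M21 (GRCm38) and upstream sequences from RefSeq (GRCm38.p6), both joined by symbol. The computation was tested on simulated data. Python 3.11.15, numpy 2.4.6, pandas 2.3.3 and matplotlib 3.10.9 were used.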

Additional observations from a re-analysis of the deposited data

How the results depend on the processing

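The median log2 ratio of the family lay between 0.92 and 1.02 under every setting tried. The number of family genes past 2-fold higher was 2 in place of 4 with 1 FPKM required in both libraries, where 1037 of all 9160 genes were higher. It was also 2 with a 4-fold threshold. The number lower was 2 in place of 1 with a 1.5-fold threshold, which added Ltbp1, and 0 with a 4-fold threshold. Of 60 single-gene values recomputed under other pseudocounts, scalings or rows, 4 crossed the 2-fold limit. These were Tgfb3 and Tgfbr1 with 1 FPKM added, and Ltbp4 with centred ratios or with libraries scaled to the 75th percentile. The sign turned in 2, both of Tgfbr2. Over all genes the counts past 2-fold, 1423 higher and 1886 lower, became 2504 and 3182 without the filter, 821 and 885 with 10 FPKM required, 2488 and 3120 at 1.5-fold, and 453 and 539 at 4-fold. Of the other pathway genes, 29 higher became 14 at 4-fold, and 4 lower became 7 without the filter, 2 with 10 FPKM required, 10 at 1.5-fold and 1 at 4-fold. No paired analysis was possible because each genotype is 1 pooled library. Read counts are unknown, so the precision of the values below 1 FPKM (Tgfbr1 in both libraries, Tgfb2 and Ltbp2 in control) is unknown too.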

Other observations

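Family genes lie near each other on 2 chromosomes. On chromosome 7 Tgfb1 and Ltbp4 are 1600 kb apart, and of 9 compared genes that lie between them 3 were more than 2-fold higher and 0 lower in csMed1-/- heart, with a median log2 ratio of 0.48. On chromosome 12 Ltbp2 and Tgfb3 are 1180 kb apart, and of 11 compared genes between them 3 were higher and 2 lower past 2-fold, with a median of -0.16. Over all genes compared 13.6% were higher and 18.0% lower, with a median of -0.07. With so few genes, the counts between the pairs are not read as a shared change of either stretch. In their make-up, Tgfb1 and Tgfb3 alone kept nearly the same proportion in both libraries, with Tgfb1 at 76.6% of their sum in control and 75.4% in csMed1-/- heart.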
